A study of Mus musculus with 4 samples.

Results

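The members described here are the 9 antiviral genes of the type I interferon response Ifit1, Ifit3, Isg15, Rsad2, Mx1, Usp18, Oasl1, Ddx60 and Irf7, taken by symbol from the 31053 genes of the count matrices, and all 9 held UMIs in each of the 4 libraries. Type I interferons bind the receptor of Ifnar1 and Ifnar2 on nearly every nucleated cell, and the kinases of that receptor activate transcription factors that bind a repeated GAAA element in the promoters of interferon-stimulated genes. The proteins made from these genes block viral translation, replication and budding or adjust the length of the response, and in tumors the same program is read as a trace of interferon reaching T cells and myeloid cells. Plasmacytoid dendritic cells are known as a strong source of type I interferon and keep Irf7, the factor that drives interferon-alpha genes, at a high resting level.

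Single-cell RNA-seq was performed on tumor cells sorted as CD3+ CD8+ from subcutaneous Myc-CaP tumors, a Myc-driven prostate cancer line of the mouse, in male FVB hosts. Mice received no treatment (Ctrl), weekly anti-PD-L1 antibody at 10 mg/kg (aPD-L1), weekly oxaliplatin, a platinum drug, at 6 mg/kg (Oxali) or both agents (Combo), for 3 to 4 weeks, so every group carried the same tumor line and the labels separate the groups by the agents. Each group was 1 library, so treatment cannot be told apart from mouse, handling or library preparation, and the number of mice in a library is not given in the sources used here. Therefore no difference has a replicate check, no test was made, and the values describe these 4 libraries. Brackets give 95% exact intervals, Poisson for levels, conditional binomial for ratios and Clopper-Pearson for shares, and they hold counting error alone. The question asked of the members was whether a library differed from Ctrl because more barcodes responded or because each responding barcode held more, in CD8 T, macrophage and plasmacytoid barcodes.

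The libraries held 1116 to 1642 barcodes and 5443036 to 6340015 UMIs, of which 1042 to 1468 barcodes were kept. Clusters were built without the members and without the other interferon genes listed. They gave 723, 1118, 966 and 833 T-like barcodes in Ctrl, aPD-L1, Oxali and Combo, 205, 249, 177 and 124 macrophage-like ones, and 71, 32, 41 and 76 plasmacytoid-like ones. All 10 T markers were found in T-like barcodes, all 14 macrophage markers in macrophage-like barcodes and all 12 plasmacytoid markers in plasmacytoid-like barcodes of each library. The sort should leave no lone macrophage. Of macrophage-like barcodes 89.5% to 94.4% also carried 3 or more UMIs of T markers, so they hold RNA of more than 1 cell type. In plasmacytoid-like barcodes this share was 71.9% to 90.2%. Read at 1500 UMIs a barcode over all libraries, Cd8a was seen in 44.95% of these, Cd8b1 in 55.05%, Cd3e in 15.6% and Trac in 13.3%. In T-like barcodes Cd3e was seen in 54.3% and Trac in 60.3%. The T marker count alone therefore does not show mixed RNA in plasmacytoid-like barcodes, and the source of these UMIs was not tested. The Ctrl library stood apart in 33 heat shock and immediate early genes, which took 2.14% of its T-like UMIs against 0.905% to 1.09% in the treated libraries, and 389 of its 723 T-like barcodes lay in a stress-led cluster that took 54, 13 and 53 barcodes of aPD-L1, Oxali and Combo. A single barcode sequence was shared by Ctrl and Combo and another by aPD-L1 and Combo.

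The members lie on 8 mouse chromosomes and are all protein coding in the GENCODE M21 annotation of GRCm38. Ifit1 (ENSMUSG00000034459, 34640871 to 34650009, + strand) and Ifit3 (ENSMUSG00000074896, 34583531 to 34588731, + strand) sit close together on chromosome 19 among near-identical copies such as Ifit3b, so the split of 3′ reads between copies is uncertain. Isg15 (ENSMUSG00000035692) lies on chromosome 4 at 156199424 to 156200818 on the − strand, Rsad2 (ENSMUSG00000020641) on chromosome 12 at 26442746 to 26456452 on the − strand, and Mx1 (ENSMUSG00000000386) on chromosome 16 at 97447035 to 97462907 on the − strand. Usp18 (ENSMUSG00000030107) lies on chromosome 6 at 121245906 to 121270917 on the + strand, Oasl1 (ENSMUSG00000041827) on chromosome 5 at 114923240 to 114937915 on the + strand, Ddx60 (ENSMUSG00000037921) on chromosome 8 at 61928087 to 62038244 on the + strand, and Irf7 (ENSMUSG00000025498) on chromosome 7 at 141262706 to 141266481 on the − strand.

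The feature that most of these genes share outside the expression data is the response element itself, and it is printed here for the promoters that hold it. RefSeq promoter windows of GRCm38.p6, from 250 bases before to 50 bases after the start of a gene, were matched for 7 members. In them the letters GAAANNGAAA were searched on both strands, overlapping matches included. Of the 7 windows 5 held a match, against 3.44% of 32851 windows of the same length over all genes, and 0.225% of all windows held 2 or more. Ifit1, Ifit3 and Ddx60 had 2 matches each, Isg15 had 3 that overlap, and Rsad2 had 1, while the windows of Oasl1 and Irf7 had none. The windows of Mx1 and Usp18 were not used here. The stretches below run 5′ to 3′ on the strand of the gene, and capitals mark the matches, which read as the reverse complement in Ifit1, Ifit3 and Rsad2, where the element lies on the other strand.
Ifit1 (chr19:34640765-34640833, + strand): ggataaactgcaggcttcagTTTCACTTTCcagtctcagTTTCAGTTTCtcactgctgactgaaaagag
Ifit3 (chr19:34583353-34583436, + strand): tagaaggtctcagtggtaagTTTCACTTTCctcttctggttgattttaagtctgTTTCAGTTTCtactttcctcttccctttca
Isg15 (chr4:156200855-156200916, − strand): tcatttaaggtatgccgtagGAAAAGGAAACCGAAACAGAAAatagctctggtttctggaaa
Rsad2 (chr12:26456543-26456592, − strand): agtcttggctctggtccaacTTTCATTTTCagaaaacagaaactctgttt
Ddx60 (chr8:61928014-61928086, + strand): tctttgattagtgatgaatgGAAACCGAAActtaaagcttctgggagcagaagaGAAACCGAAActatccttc
Ifit1 and Ifit3 carried the same pair of matched sequences in the same order, and Ddx60 carried 1 sequence at both places that Isg15 held as the middle of its run. The matches began between 156 bases (Ifit3) and 19 bases (Ddx60) before the start site. A match describes the letters of the window and does not show that a factor was bound in these cells.

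In T-like barcodes the members were higher in Combo than in Ctrl and closer to Ctrl in the libraries of either agent alone. Levels are in CPM, UMIs of a gene per 1000000 UMIs after summing all barcodes of a class, and the 9 members together stood at 761 CPM in Ctrl, 936 with aPD-L1, 947 with Oxali and 1236 with Combo. Combo therefore held 1.62 times the Ctrl level [1.54, 1.71], aPD-L1 1.23 times [1.16, 1.30] and Oxali 1.24 times [1.18, 1.32]. Combo also exceeded aPD-L1 by a ratio of 1.32 [1.26, 1.38] and Oxali by 1.31 [1.25, 1.37]. A gene was called higher or lower where its ratio to Ctrl reached 1.5-fold and its interval left out 1, among genes with at least 20 UMIs over the compared libraries. By that rule 7 of the 9 members were higher in Combo and none lower, where 6.74% of all 9322 genes tested were higher and 3.95% lower. In aPD-L1 and in Oxali only Usp18 passed the rule as higher and none as lower. The background there was 2.51% higher and 4.04% lower of 9323 genes for aPD-L1, and 2.79% higher and 4.51% lower of 9246 genes for Oxali. The median log2 ratio of the 9 members was 0.27 with aPD-L1, 0.32 with Oxali and 0.70 with Combo, against 0.02, -0.00 and 0.12 over all genes tested.

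The shift of 0.12 over all genes in Combo bears on the count. Centred on it, the summed ratio was 1.497 and 4 members stayed past the rule, Ifit3, Usp18, Ddx60 and Irf7, where 4.1% of all genes tested were higher. With totals that leave out ribosomal, mitochondrial and stress genes it was 1.46 with 3 members, Ifit3, Usp18 and Ddx60, and 3.52% of all genes were higher. The distance from Ctrl also moved with the stressed barcodes of Ctrl. Without the stress-led cluster the summed ratios were 1.55 with aPD-L1, 1.57 with Oxali and 2.06 with Combo, with 5 members higher in each single-agent library and 8 in Combo. The share of all genes that were higher also rose under this setting, to 3.77% of 8923 genes in aPD-L1, 4.22% of 8856 in Oxali and 7.2% of 8893 in Combo.

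**Figure D1:**
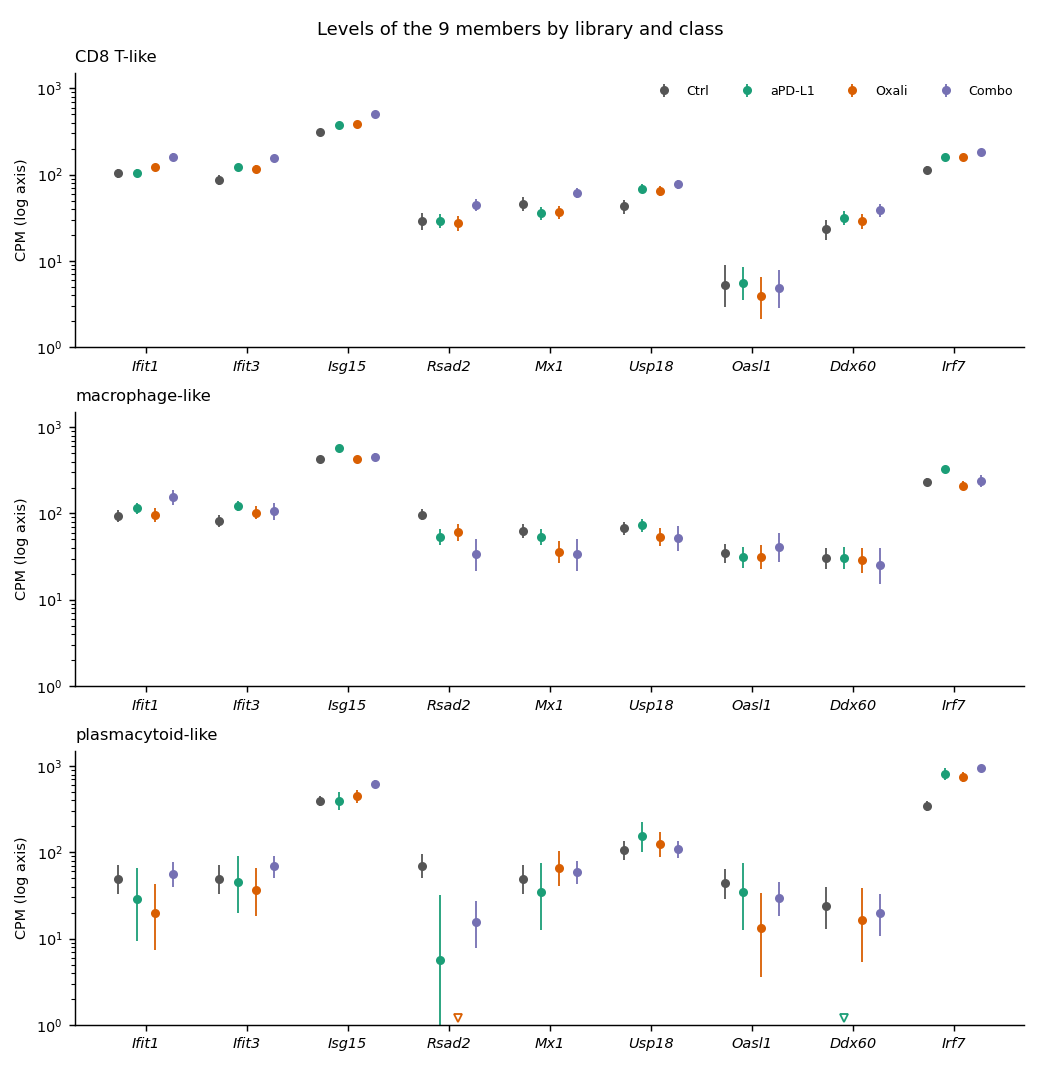
Levels of the 9 members by library in CD8 T-like, macrophage-like and plasmacytoid-like barcodes, as CPM on a log axis with 95% Poisson intervals for counting error, and open triangles where a library held no UMI. In T-like barcodes Combo was the highest library for 8 members, in macrophage-like barcodes Rsad2 was highest in Ctrl, and in plasmacytoid-like barcodes Irf7 was lowest in Ctrl.

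Among the regulators, Irf7 stood at 113 CPM in the T-like barcodes of Ctrl, 161 with aPD-L1, 158 with Oxali and 185 with Combo. Ctrl was the low library for this factor, and each treated library was above it, by 1.42 [1.23, 1.63], 1.40 [1.21, 1.61] and 1.63 [1.42, 1.88]. Usp18, the protease that removes Isg15 from proteins and dampens signaling at the interferon receptor, stood at 42.8 CPM (Ctrl), 68.6 (aPD-L1), 64.3 (Oxali) and 77.8 (Combo). It gave the largest ratio of the 9 members in all 3 comparisons, 1.60 [1.28, 2.02], 1.503 [1.195, 1.90] and 1.82 [1.46, 2.29], and Combo and aPD-L1 were close, at a ratio of 1.13 [0.954, 1.35] whose interval held 1. No member was called in Oxali without the dividing cluster or without the Scrublet-marked barcodes, nor in aPD-L1 without the dividing cluster.

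Isg15, the ubiquitin-like protein that Usp18 acts on, was at 312 CPM in Ctrl, 377 with aPD-L1, 389 with Oxali and 507 with Combo. The single-agent libraries lay together between Ctrl and Combo, with ratios of 1.21 [1.11, 1.32], 1.25 [1.14, 1.36] and 1.63 [1.496, 1.77]. Ifit3, a partner of other Ifit proteins that bind foreign RNA, also lay between Ctrl and Combo under either agent, with 86.3, 123, 117 and 155 CPM in the Ctrl, aPD-L1, Oxali and Combo libraries. Its ratio was 1.43 [1.22, 1.68] with aPD-L1, 1.35 [1.15, 1.60] with Oxali and 1.80 [1.54, 2.11] with Combo.

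Ifit1, which binds viral RNA lacking host cap marks and blocks its translation, stood at 104 CPM (Ctrl), 105.4 (aPD-L1), 122 (Oxali) and 162 (Combo). The aPD-L1 library lay at the Ctrl level with a ratio of 1.01 [0.867, 1.18], whereas Combo was at 1.56 [1.35, 1.81]. Rsad2, the radical-SAM enzyme viperin that makes an antiviral nucleotide, likewise stood at 28.8, 29.1 and 27.2 CPM in Ctrl, aPD-L1 and Oxali and at 44.0 in Combo. The Combo ratio was 1.53 [1.16, 2.04], and 1 barcode held 11.04% of the Rsad2 UMIs of that library, without which it stood at 39.2 CPM.

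Mx1, a dynamin-like GTPase that traps viral nucleoproteins, had the lowest single-agent ratios of the members, apart from the thinly counted Oasl1 in Oxali. Its levels were 45.4 CPM in Ctrl, 35.5 with aPD-L1, 36.6 with Oxali and 61.5 with Combo. The ratios were 0.780 [0.607, 1.00] and 0.805 [0.624, 1.04] for the single agents and 1.35 [1.08, 1.71] for Combo, so Mx1 did not reach 1.5-fold in any of the 3. Against aPD-L1, however, Combo held 1.73 times the Mx1 level [1.40, 2.16], and against Oxali 1.68 times [1.35, 2.10]. Ddx60, a helicase linked to the RNA sensor Ddx58, stood at 23.1, 31.4, 28.8 and 38.6 CPM, with a Combo ratio of 1.67 [1.23, 2.30] and single-agent ratios of 1.36 and 1.25 whose intervals held 1. Oasl1, which in the mouse restrains translation of Irf7 mRNA, was too thinly counted for a comparison, with 14, 22, 14 and 17 UMIs and 3.88 to 5.57 CPM.

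The member UMIs of T-like barcodes were unevenly spread. Each barcode was thinned to 1500 UMIs, which left 700, 1001, 868 and 781 T-like barcodes, and a barcode was called responding when it held at least 3 UMIs of the 9 members. In the draw used, 12.7% barcodes responded [10.3, 15.4] (Ctrl), 16.0% [13.8, 18.4] (aPD-L1), 16.0% [13.6, 18.6] (Oxali) and 21.1% (Combo) [18.3, 24.2]. Between 49.9% and 60.3% of barcodes held no member UMI at all, and the variance of the member sum was 5.70 times its mean in Ctrl, 7.48 with aPD-L1, 7.78 with Oxali and 8.38 with Combo. The responding class is a range on this sum and not a cell type, since 56 to 78 barcodes of a library held 2 member UMIs and 21 to 38 held 3.

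Averaged over all possible draws, which removes the chance of a single draw, the responding share was 13.7% in Ctrl, 16.5% with aPD-L1, 15.5% with Oxali and 22.4% with Combo. A responding barcode held on average 6.301 member UMIs of its 1500 (Ctrl), 6.97 (aPD-L1), 7.46 (Oxali) and 7.65 (Combo), and the other barcodes 0.397, 0.433, 0.401 and 0.462. Combo was thus 1.64 times Ctrl in share and 1.21 times in level per responding barcode. Each change was weighted by the mean of both libraries in the other quantity, and by this rule 65.8% of the Combo difference came with the share and 28.1% with the level of responding barcodes. For aPD-L1 the parts were 57.0% and 33.0%, and for Oxali 40.5% and 58.4%. In the single draw the share took 78.0% and 78.9% for the single agents, so the split of those smaller differences is not settled by 1 draw.

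**Figure D2:**
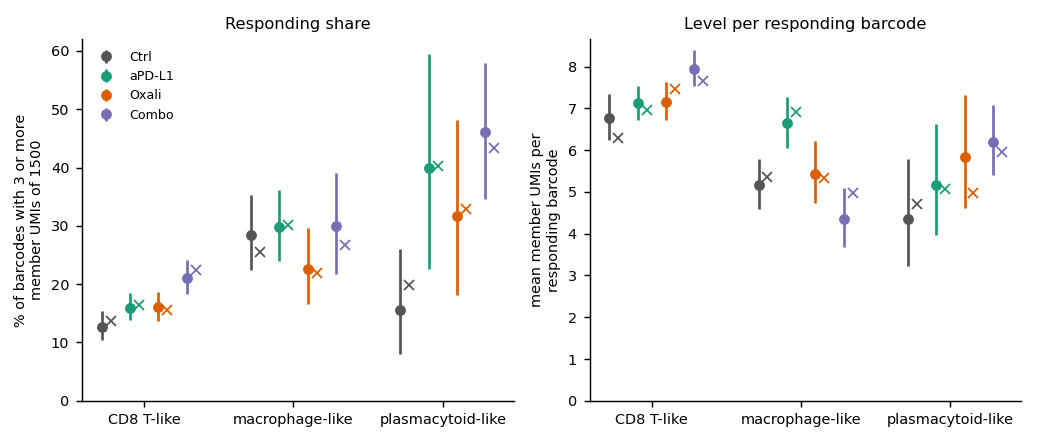
Responding share (left, % of barcodes with 3 or more member UMIs after thinning to 1500) and mean member UMIs per responding barcode (right) by class and library. Dots and bars give the single draw with 95% intervals for counting error, and crosses give the average over all draws. Combo was the highest T-like library in both panels, and plasmacytoid-like intervals were wide.

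The division into share and level depended on the depth at which it was read. At 2500 UMIs a barcode, the Combo share was 28.6% against 22.0% in Ctrl, a ratio of 1.30, the level per responding barcode was 10.4 against 7.36 UMIs, a ratio of 1.41, and 41.5% of the difference came with the share. A comparison at equal mean was therefore added. Combo barcodes read at 1516 UMIs and Ctrl barcodes read at 2500 both held a mean of 2.04 member UMIs, over 531 and 441 barcodes. At that point 48.3% of Combo and 52.5% of Ctrl barcodes held a member UMI, 20.8% [17.3, 24.4] and 22.0% [18.2, 26.2] held 3 or more, 12.9% and 12.5% held 5 or more, and 5.27% and 4.69% held 10 or more. The aPD-L1 and Oxali libraries, matched in the same way, had 22.6% [19.4, 26.1] and 20.6% [17.3, 24.3] of barcodes at 3 or more. Therefore, in T-like barcodes, the spread of member UMIs over barcodes alone cannot tell a larger responding share from a higher level by 1 common factor in every barcode. The division by cluster is given below. Without the stress-led cluster the matched shares at 3 or more were 19.3% [15.8, 22.9] in Combo and 16.0% [11.1, 22.1] in Ctrl.

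**Figure D3:**
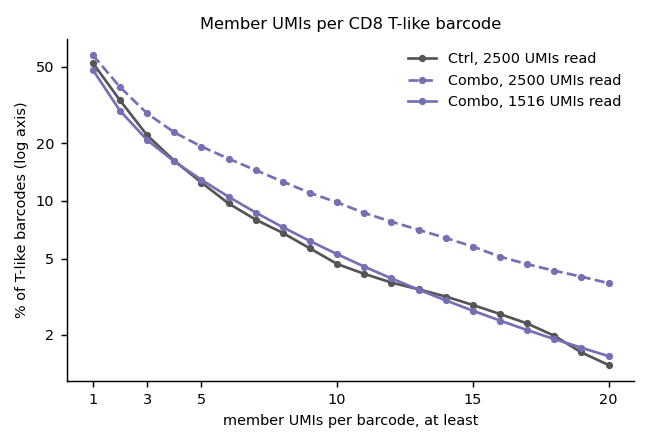
Percent of CD8 T-like barcodes (log axis) that held at least the given number of member UMIs, averaged over all draws, for Ctrl and Combo barcodes of 2500 or more UMIs. Read at 2500 UMIs Combo lay above Ctrl throughout, and read at 1516 UMIs, where both means were 2.04, Combo lay close to the Ctrl line, with 20.8% and 22.0% at 3 or more.

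To keep a gene out of its own classification, barcodes were also split by the other 8 members, with the same limit of 3 UMIs, and the gene left out was read in each side. In barcodes that responded by the other 8, the level of Isg15 was 2.85 UMIs in Ctrl, 3.32 with aPD-L1, 3.64 with Oxali and 3.70 with Combo, with a Combo ratio of 1.30 [1.08, 1.56]. Irf7 was at 0.557, 0.717, 0.791 and 0.891 UMIs with a Combo ratio of 1.60 [1.12, 2.31], and Ifit3 at 0.765, 0.886, 0.942 and 1.13 with a Combo ratio of 1.48 [1.10, 2.02]. These 3 members were higher per responding barcode in Combo. In the remaining barcodes Combo was also above Ctrl, at 1.78 times for Isg15, 1.51 for Ifit3 and 1.37 for Irf7, so the rise was not particular to responding barcodes. Ifit1, Rsad2 and Oasl1 were below Ctrl in the remaining barcodes of Combo. No intervals were made for that side. For the other 6 members the interval of the Combo ratio in responding barcodes held 1. Usp18, for example, was at 0.460, 0.431, 0.451 and 0.432 UMIs in barcodes responding by the other 8, and at 0.0245, 0.0401, 0.0340 and 0.0479 UMIs in the remaining barcodes, where Combo was at 1.96 times Ctrl. Ifit1 was lower per responding barcode in aPD-L1 than in Ctrl, at 0.744 times [0.562, 0.988], and Mx1 lower in Oxali, at 0.579 times [0.348, 0.960]. Isg15 was higher in Oxali, at 1.28 times [1.06, 1.55]. These values are from the single draw.

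The members were often found together. Of T-like barcodes with an Rsad2 UMI after thinning, 93.2% held another member, against 41.6% of those without. For Ifit1 these shares were 88.7% and 36.5%, and for Irf7, which had the lowest such share, 63.5% and 30.6%. By share of thinned barcodes with a UMI, Isg15 was seen in 22.0% (Ctrl), 24.4% (aPD-L1), 24.1% (Oxali) and 31.1% (Combo) barcodes (unthinned 34.7%, 35.7%, 37.0% and 42.6%), and Irf7 in 15.1%, 18.5%, 20.7% and 21.8% (unthinned 28.1%, 33.6%, 33.3% and 38.9%). The same T-like barcodes also held UMIs of macrophage genes, C1qa in 4.71% to 7.81% and Apoe in 11.5% to 12.3%, whose source was not tested, whereas the plasmacytoid gene Siglech was seen in 1 of 3350. The shares of Rsad2 (3.57% to 4.48%), Mx1 (4.49% to 7.55%), Ddx60 (3.00% to 5.89%), Usp18 (5.86% to 10.8%) and Oasl1 (0.346% to 0.857%) lay under the Apoe share and are not read as expression by themselves, and those of Ifit1 (10.6% to 14.1%) and Ifit3 (11.1% to 17.0%) lay near it. The summed macrophage markers stood at 517, 469, 515 and 674 CPM in T-like barcodes, highest in Combo as the members were. In barcodes with fewer than 3 macrophage UMIs the summed member ratio of Combo was 1.74 [1.63, 1.86], larger than over all T-like barcodes. In those with 3 or more, the members summed to 973 CPM (Ctrl), 917 (aPD-L1), 922 (Oxali) and 1294 (Combo). There the single-agent libraries lay below Ctrl and Combo above it.

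Across T-like clusters, the responding share over all libraries ran from 3.68% in a cluster with Dapl1 and Ccr7, genes of resting and lymph-node-homing T cells, to 91.9% in a small cluster led by Trim30c, Cxcl10 and Rsad2. Between these were clusters led by Gzma and Zeb2 (5.10%), by the cell division genes Pclaf and Ube2c (8.29%), by Id3 and Ly6c2 (10.1%), by Hspa1a (15.8%), by Tmem176b (19.4%), by Klrc2 and Trim56 (25.3%) and by Fasl, Ccl5 and Cxcr6 (28.9%). The listed interferon genes were kept out of the clustering, but genes that follow them, such as Trim30c, were not, so the last cluster is itself a readout of the response. Within each of the 9 clusters the responding shares of the 4 libraries had overlapping intervals, and the cluster mix differed, with 29 Ctrl and 200 Combo barcodes in the Fasl, Ccl5 and Cxcr6 cluster, whose leading genes included Ifit3. With every library set to the pooled cluster mix, the shares were 14.8%, 17.2%, 15.4% and 18.5% for Ctrl, aPD-L1, Oxali and Combo. The difference in mean member UMIs from Ctrl was also divided into cluster mix and levels within clusters. Mix took 58.3% with aPD-L1, 31.6% with Oxali and 64.7% with Combo, and levels took 41.7%, 68.4% and 35.3%. In UMIs the mix part was 0.178, 0.0910 and 0.562, and the cluster led by Trim30c alone gave 0.307, 0.391 and 0.455. That exceeds the whole mix part in both single-agent libraries. Because that cluster is itself a readout of the response, the mix part cannot be read as separate from the member level. The mean was above Ctrl in 5, 4 and 7 of the 9 clusters. The interferon-led cluster with Trim30c, Cxcl10 and Rsad2 held 7, 34, 36 and 34 barcodes, which made up 0.968% of T-like barcodes in Ctrl, 3.04% with aPD-L1, 3.73% with Oxali and 4.08% with Combo. In it the members summed to 9389 CPM in Ctrl, 7416 with aPD-L1, 8335 with Oxali and 9760 with Combo.

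The stress-led cluster bears on this count, because it took up 389 Ctrl barcodes that could not then join another cluster. Of the T-like barcodes outside it, the interferon-led cluster held 2.10% [0.847, 4.27] (Ctrl), 3.195% [2.22, 4.44] (aPD-L1), 3.78% [2.66, 5.19] (Oxali) and 4.36% [3.04, 6.04] (Combo), and these intervals overlap. Barcodes with 10 or more member UMIs of 1500, counted wherever they clustered, were 2.63% [1.53, 4.03] in Ctrl, 3.44% [2.36, 4.71] with aPD-L1, 3.73% [2.54, 5.16] with Oxali and 5.19% [3.79, 7.05] with Combo. In Ctrl 51.4% of them lay in the stress-led cluster, against 2.68% to 5.65% in the treated libraries. In T-like barcodes of neither cluster the members summed to 492 CPM (Ctrl), 760.0 (aPD-L1), 692 (Oxali) and 966 (Combo), with ratios of 1.54 [1.42, 1.69], 1.41 [1.29, 1.54] and 1.96 [1.80, 2.14]. Within the stress-led cluster they summed to 908, 954, 984 and 1132 CPM, where the Combo ratio was 1.25 [1.06, 1.46] and the single-agent intervals held 1. Over all T-like barcodes outside the interferon-led cluster, stressed ones included, the ratios were 1.08 [1.02, 1.15], 0.980 [0.922, 1.04] and 1.37 [1.30, 1.45]. The pooled level outside the interferon-led cluster was thus higher in Combo than in Ctrl whichever way the stressed barcodes were counted. The interferon-led share was higher with overlapping intervals once the stressed barcodes were set aside. With them the pooled Oxali interval held 1 and without them it lay above 1, while aPD-L1 lay above Ctrl both ways. These pooled levels also hold the cluster mix. Of thinned Ctrl and Combo barcodes, the Dapl1 cluster held 109 and 67, at means of 0.377 and 0.385 member UMIs. The Fasl, Ccl5 and Cxcr6 cluster held 24 and 174, at 2.13 and 2.55. The part of the stress genes in the result was not tested.

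**Figure D4:**
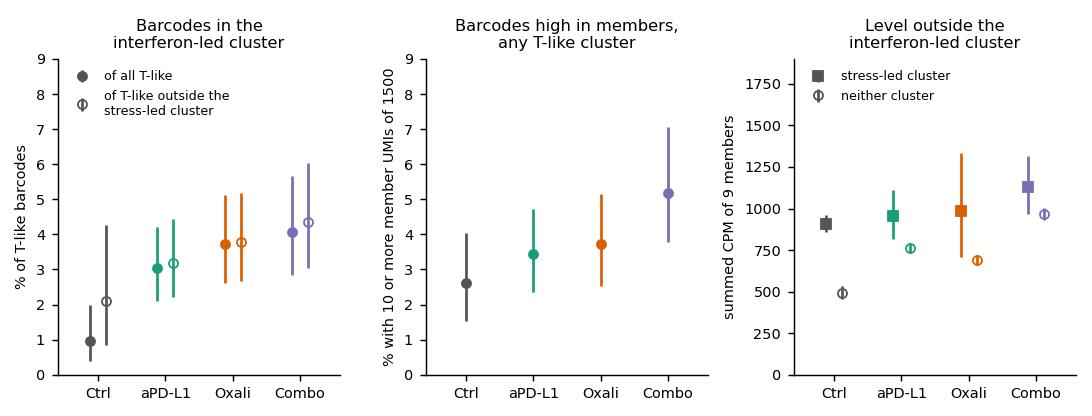
Left, barcodes of the interferon-led cluster as % of all T-like barcodes (filled) and of those outside the stress-led cluster (open). Middle, % of T-like barcodes with 10 or more member UMIs of 1500. Right, summed CPM of the 9 members in the stress-led cluster (squares) and in barcodes of neither cluster (circles), the latter pooled over clusters whose mix differed between libraries. Bars are 95% intervals for counting error. Ctrl was at 0.968% of all T-like barcodes and at 2.10% outside the stress-led cluster, and in neither cluster it was the lowest library at 492 CPM.

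**Figure D5:**
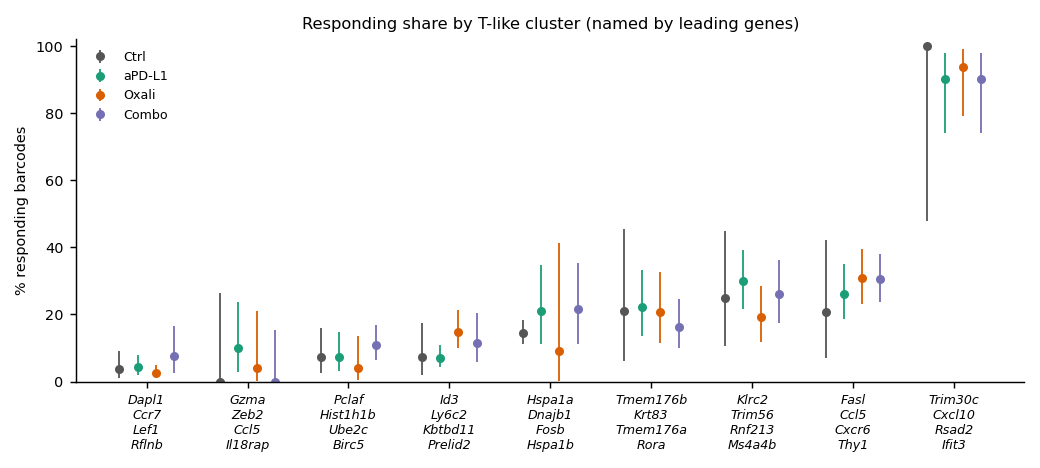
Responding share of each T-like cluster by library, in %, with 95% Clopper-Pearson intervals, clusters named by leading genes and ordered by their share over all libraries. In all 9 clusters the intervals of the 4 libraries overlapped, and the order of clusters spanned 3.68% to 91.9%.

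In macrophage-like barcodes the summed members did not follow the order seen in T-like barcodes. They stood at 1132 CPM in Ctrl, 1385 with aPD-L1, 1044 with Oxali and 1138 with Combo, with ratios of 1.22 [1.15, 1.30], 0.922 [0.860, 0.987] and 1.01 [0.925, 1.09]. By the 1.5-fold rule 1 member was higher and 1 lower in aPD-L1 (background 2.83% and 8.34% of 8822 genes), none higher and 2 lower in Oxali (2.49% and 5.45% of 8692 genes), and 1 higher and 2 lower in Combo (4.28% and 5.68% of 8217 genes). The summed ratio of Oxali changed side when gates replaced clusters (1.02) or stressed barcodes were left out (1.02). That of aPD-L1 was 0.884 in the few barcodes with under 3 T UMIs, and those of Oxali and Combo were 0.450 and 0.269 there.

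Rsad2 was highest in Ctrl, at 97.1 CPM, against 53.7 with aPD-L1, 60.3 with Oxali and 33.8 with Combo. Its ratios were 0.553 [0.422, 0.719], 0.621 [0.471, 0.814] and 0.349 [0.217, 0.536]. In T-like barcodes Combo lay above Ctrl for this gene. The top barcode held 12.6% to 23.8% of the Rsad2 UMIs of a library, and without it the levels were 84.6, 47.0, 46.5 and 28.3 CPM. Mx1 was likewise at 63.3 CPM (Ctrl), 53.7 (aPD-L1), 36.2 (Oxali) and 33.8 (Combo), with ratios of 0.849 [0.635, 1.13], 0.572 [0.399, 0.808] and 0.535 [0.329, 0.837]. The macrophage-like class was a mix of 2 clusters whose shares differed between libraries. A cluster led by Cxcl2 and Fn1 held 107 of 205 barcodes in Ctrl but 32 of 124 in Combo, and a cluster led by C1qb, C1qc and C1qa held 98 and 92. The summed members of Oxali and Combo lay on opposite sides of Ctrl in these clusters. In the C1q cluster they stood at 944 CPM (Ctrl), 1347 (aPD-L1), 1102 (Oxali) and 1248 (Combo), with ratios of 1.43 [1.29, 1.58], 1.17 [1.04, 1.31] and 1.32 [1.16, 1.501]. In the Cxcl2 cluster they stood at 1209.6, 1452, 994 and 1002 CPM, with ratios of 1.2004 [1.10, 1.31], 0.822 [0.751, 0.899] and 0.828 [0.731, 0.935]. In the Cxcl2 cluster Rsad2 stood at 109.5 CPM in Ctrl, 63.1 with aPD-L1, 63.1 with Oxali and 15.8 with Combo, from 140, 37, 45 and 5 UMIs. In the C1q cluster it stood at 66.8, 48.4, 57.0 and 48.4 CPM, where all 3 ratios to Ctrl had intervals that held 1.

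Ifit1 and Ifit3 went the other way in macrophage-like barcodes. Ifit1 was at 94.3 CPM (Ctrl), 115 (aPD-L1), 96.5 (Oxali) and 154 (Combo), where its ratio of 1.63 [1.27, 2.09] passed the rule. Ifit3 was at 81.6, 123, 103 and 106 CPM, and its ratio of 1.51 [1.21, 1.88] in aPD-L1 passed. Within the C1q cluster Ifit1 stood at 72.5, 119.9, 140.2 and 206 CPM in the same order of libraries, with ratios of 1.65 [1.14, 2.45], 1.93 [1.31, 2.91] and 2.85 [1.91, 4.30]. In the Cxcl2 cluster it was at 103, 107, 58.9 and 88.5 CPM, where the Oxali ratio was 0.570 [0.393, 0.812] and the others had intervals that held 1. Isg15 was at 432, 574, 424 and 454 CPM and Irf7 at 232, 330.1, 210.3 and 238, each highest in aPD-L1 with ratios of 1.33 [1.21, 1.47] and 1.42 [1.25, 1.62]. Usp18 ranged from 52.2 to 72.8 CPM, Oasl1 from 31.5 to 40.9 and Ddx60 from 25.4 to 30.9, and all of their intervals held 1.

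The responding share of macrophage-like barcodes, averaged over draws, was 25.5% in Ctrl, 30.2% with aPD-L1, 22.0% with Oxali and 26.7% with Combo, from 200, 235, 172 and 117 thinned barcodes. The level per responding barcode was 5.35, 6.91, 5.34 and 4.98 member UMIs. In aPD-L1 37.3% of the difference from Ctrl came with the share and 62.9% with the level. These parts moved with depth, to 49.5% and 48.6% at 1000 UMIs and 22.4% and 77.0% at 2500 UMIs. At equal means 34.8% [28.2, 42.1] of aPD-L1 and 38.4% [31.4, 46.3] of Ctrl barcodes held 3 or more. The intervals overlap, so share and level cannot be told apart in macrophage-like barcodes either. Because at least 89.5% of these barcodes carried T markers, at 3686 to 4351 CPM in sum, member UMIs of T cells and of macrophages within a barcode cannot be told apart.

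In plasmacytoid-like barcodes the difference from Ctrl lay mainly in Irf7. It stood at 345 CPM (Ctrl), 811 (aPD-L1), 749 (Oxali) and 943 (Combo), 2.35 [1.89, 2.93], 2.17 [1.79, 2.64] and 2.74 [2.34, 3.22] times Ctrl. The summed members were at 1129, 1508, 1477 and 1924 CPM with ratios of 1.34 [1.15, 1.54], 1.31 [1.16, 1.48] and 1.70 [1.55, 1.87]. Without Irf7 the ratios of the other 8 were 0.888 [0.722, 1.09], 0.929 [0.788, 1.09] and 1.25 [1.11, 1.41]. By the 1.5-fold rule 1 of 8 tested members was higher and 1 lower in aPD-L1 (background 7.94% and 7.45% of 4762 genes), 1 of 8 higher and 3 lower in Oxali (5.9% and 6.71% of 5217 genes), and 2 of 9 higher and 1 lower in Combo (5.34% and 6.07% of 6362 genes). The median log2 ratio of all genes in aPD-L1 was 0.10.

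The make-up of the plasmacytoid-like barcodes moved with Irf7. Summed plasmacytoid markers were at 6991 CPM in Ctrl, 13414 with aPD-L1, 10542 with Oxali and 9572 with Combo, and summed macrophage markers at 5207, 1816, 2332 and 2965, with 12 of 14 macrophage markers detected in aPD-L1 and all 14 in the other libraries. Per 1000 UMIs of the 12 plasmacytoid markers, Irf7 was at 49.3 (Ctrl), 60.5 (aPD-L1), 71.0 (Oxali) and 98.6 (Combo), with ratios of 1.23 [0.983, 1.53], 1.44 [1.19, 1.75] and 2.00 [1.71, 2.35]. A gate on at least 3 Siglech UMIs and fewer than 10 UMIs of C1q genes and Apoe kept 45, 25, 34 and 56 barcodes, and in them Irf7 stood at 392, 774, 788 and 1133 CPM, with ratios of 1.98 [1.48, 2.64], 2.01 [1.56, 2.61] and 2.89 [2.32, 3.65]. Irf7 was therefore lowest in Ctrl by each of the 3 measures, by a smaller margin per marker UMI, where the aPD-L1 interval held 1.

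Isg15 stood at 392 CPM in Ctrl, 394 with aPD-L1, 450.4 with Oxali and 625 with Combo, and its Combo ratio of 1.59 [1.36, 1.88] passed the rule. Per plasmacytoid marker UMI that ratio was 1.16 [0.991, 1.37], whose interval held 1. The single-agent libraries fell below Ctrl on this measure, aPD-L1 at 0.524 [0.394, 0.688] and Oxali at 0.762 [0.612, 0.945]. Within the Siglech gate the Combo ratio of Isg15 was 2.06 [1.57, 2.73], and both single-agent intervals held 1. The Isg15 call thus depended on the measure. Rsad2 was found almost only in Ctrl and Combo, with 41, 1, 0 and 11 UMIs in Ctrl, aPD-L1, Oxali and Combo. The Ctrl level of 69.6 CPM came in part from 1 barcode with 41.5% of the UMIs, without which it was 41.8 CPM. Against the floor of 3 UMIs in Oxali, 9.94 CPM, the Ctrl level was at least 7.01-fold higher with that barcode and at least 4.21-fold without it, while the ratio to Ctrl was 0.0820 [0.00203, 0.483] in aPD-L1 and 0.222 [0.103, 0.439] in Combo. Within the Siglech gate Rsad2 held 13, 0, 0 and 6 UMIs. Ifit1 at 49.2, 28.6, 19.9 and 56.1 CPM and Oasl1 at 44.1, 34.3, 13.2 and 29.4 CPM were the other members lower in Oxali, at 0.404 [0.137, 0.989] and 0.300 [0.0761, 0.865] times Ctrl on 6 and 4 UMIs. Of the Ctrl UMIs, 24 of Ifit1 and 18 of Oasl1 lay outside the Siglech gate, and 5 and 8 inside it. Within the gate the Oxali ratios were 1.04 [0.239, 4.52] for Ifit1 and 0.520 [0.115, 1.94] for Oasl1, so neither was lower there beyond counting error. Ifit3 (36.4 to 68.7 CPM), Mx1 (34.3 to 66.2), Usp18 (107 to 154) and Ddx60 (14, 0, 5 and 14 UMIs) had intervals that held 1 in all 3 comparisons.

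The responding share of plasmacytoid-like barcodes, averaged over draws, was 19.9% (Ctrl), 40.3% (aPD-L1), 32.9% (Oxali) and 43.4% (Combo), over 71, 30, 41 and 76 barcodes. Responding barcodes held 4.72, 5.06, 4.98 and 5.96 member UMIs. By this division 74.7%, 83.0% and 66.2% of the difference from Ctrl came with the share. The share itself depended on Irf7. In the single draw its ratio to Ctrl was 2.58 in aPD-L1 and 2.05 in Oxali, and without Irf7 it was 1.05 and 0.770. The Combo share ratio was above 1 in 15 of 15 settings. At equal means, however, 39.6%, 38.7% and 37.9% of barcodes held 3 or more in the aPD-L1, Oxali and Combo libraries. Each lay inside the Ctrl interval, 36.3% [25.0, 48.7], so for the member sum share and level cannot be told apart here either. Irf7 was also read apart, in the single draw split by the other 8 members. It stood at 0.778, 2.75, 2.75 and 3.12 UMIs (Ctrl, aPD-L1, Oxali, Combo) in 9, 4, 4 and 17 responding barcodes. In the remaining barcodes it stood at 0.419, 1.54, 1.11 and 1.42 UMIs. Irf7 per barcode was thus lowest in Ctrl on both sides of the split.

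Other genes of the pathway were counted from lists that were chosen with earlier results of these data known. Of 40 further type I interferon-stimulated genes, 39 were in the matrices and 35 were tested in T-like barcodes, of which 2 were higher in aPD-L1, none in Oxali and 12 in Combo, with none lower, where the share of all genes that were higher was 2.51%, 2.79% and 6.74%. Their median log2 ratio was 0.19, 0.07 and 0.46, so this wider set was ordered like the members in Combo and lay near all genes in Oxali. In Combo Ifitm3, a membrane protein that blocks viral entry, was at 2.74 times Ctrl [2.28, 3.30], Oas1a, which makes the activator of RNase L, at 2.48 times [1.504, 4.26], Eif2ak2, the kinase PKR, at 2.14 times [1.52, 3.05], and Cmpk2, the genomic partner of Rsad2, at 1.79 times [1.21, 2.69]. Genes led by interferon gamma gave 6, 1 and 3 of 25 higher and none lower against the same shares of all genes, at medians of 0.34, 0.26 and 0.45. Among them Iigp1, a GTPase that attacks parasite vacuoles, was at 2.79, 2.29 and 2.25 times Ctrl, and Cxcl10, a chemokine for activated T cells, at 1.61, 1.33 and 1.95 times. Irgm2, an immunity-related GTPase, was at 1.83 times Ctrl in Combo, whereas the transcription factor Irf1 stood at 165 CPM in Ctrl and 124 in Combo.

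The ligands were almost not seen. All 19 type I and III interferon genes listed held 24 UMIs over every kept barcode, 16 of them in macrophage-like, 5 in T-like and 3 in plasmacytoid-like barcodes, and Ifnb1 held 2, 2, 11 and 0 UMIs in Ctrl, aPD-L1, Oxali and Combo. Ifng, the type II ligand, stood at 343, 195, 80.6 and 262 CPM in T-like barcodes, lower by the rule in aPD-L1 and Oxali, an order unlike that of the members, and it was among the 10 leading genes of the stress-led cluster. The receptor gene Ifnar1 was at 53.0, 58.0, 57.6 and 56.1 CPM, within 1.10 times Ctrl, and of 10 kinases and factors of the pathway none passed the rule in any library. Of 4 receptor genes only Ifngr1, a chain of the interferon gamma receptor, passed, at 1.52 times Ctrl in Combo, and of 6 tested sensors only Ifih1, the RNA sensor MDA5, at 1.63 times. Tlr7, the endosomal RNA sensor of plasmacytoid cells, was at 98.5, 148, 142 and 130.4 CPM in plasmacytoid-like barcodes.

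The genes whose pattern was most like the member sum were ranked by Pearson correlation over T-like barcodes within each library, as the mean of 4 libraries, among 7753 genes with at least 100 UMIs. The first were Zbp1, a sensor of Z-form nucleic acid, at 0.479, Bst2, the tetherin of budding virus, at 0.469, the exonuclease gene Isg20 at 0.462, Ifit3b at 0.438, Rtp4 at 0.437 and Phf11b at 0.431. Ifi209, Trim30a and Ifi27l2a were also among the first 10, at 0.414, 0.398 and 0.396. These correlations are across barcodes of 723, 1118, 966 and 833 T-like cells that share library and depth, and they describe co-occurrence only.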

How the data were processed

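The deposited files are matrices of raw UMI counts, genes by barcodes, 1 for each of the 4 libraries. Per the labels and the submitters' processing notes, the authors made these counts with Cell Ranger 3.1.0 against mm10 from Chromium 3′ v3 libraries of CD3+ CD8+ sorted tumor cells. Barcodes under 500 genes or over 10% mitochondrial UMIs were left out, and the others were scaled to 10000 UMIs and clustered without the listed interferon genes (scanpy 1.11.5, anndata 0.12.19, igraph 0.11.9, leidenalg 0.10.2, 2000 variable genes, 30 components, 15 neighbors, resolution 1), and clusters were named from listed markers. Scrublet marked 5, 8, 0 and 2 barcodes in Ctrl, aPD-L1, Oxali and Combo, a share too small to remove doublets effectively.

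Raw counts were summed per class and library. Ratios carry exact conditional binomial intervals, levels Poisson and shares Clopper-Pearson intervals at 95%, for counting error alone. Genes with at least 20 UMIs over both libraries were tested by size, and a call needed 1.5-fold and an interval without 1. Barcodes were thinned to 1500 UMIs, which left out 3.18% to 10.5% of T-like barcodes, and at least 3 member UMIs made a barcode responding. The equal-mean comparison, the average over draws, the split by stress-led cluster, the Siglech gate and other added alternatives were chosen after seeing the data. Alternatives were other depths, thresholds, filters, gates and scalings. The members and lists were chosen with earlier results of these data known. All 9 members are named, with up to 4 genes of each list that had the largest Combo over Ctrl ratio in either direction and at least 50 UMIs in T-like barcodes of those libraries, and the 10 genes of highest likeness, of which 1 is not reported here. Ifnb1 and Tlr7 were named for their role, after their values were seen. Positions are from GENCODE M21 (all 9 IDs matched), promoters from RefSeq. Python 3.11.15, numpy 2.4.6, pandas 2.3.3, scipy 1.17.1 and matplotlib 3.10.9 were used, and the scripts were tested on simulated data.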

Additional observations from a re-analysis of the deposited data

Results flagged for a closer look

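Some members moved in opposite directions from Ctrl in different cell classes, with counting intervals on opposite sides of 1. The difference between classes was not tested, since each group is 1 library. In Oxali, Ifit1 was at 1.18 times Ctrl in T-like and 0.404 times in plasmacytoid-like barcodes, the latter on 6 UMIs. Within the Siglech gate of plasmacytoid-like barcodes that ratio was 1.04 [0.239, 4.52]. In Combo, Rsad2 was at 1.53 times Ctrl in T-like barcodes, 0.349 times in macrophage-like and 0.222 times in plasmacytoid-like ones. Mx1 in Combo was at 1.35 times Ctrl in T-like and 0.535 times in macrophage-like barcodes. The summed 9 members in Oxali were at 1.24 times Ctrl in T-like, 1.31 times in plasmacytoid-like and 0.922 times in macrophage-like barcodes.

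Signal above Ctrl also appeared in barcodes outside the 3 classes. In CD4 T-like barcodes, 13 in Ctrl and 42 in Combo, the members summed to 1067 CPM in Ctrl and 1481 in Combo, a ratio of 1.39 [1.08, 1.80]. In the 15 such barcodes of aPD-L1 they summed to 389.8 CPM, 0.365 times Ctrl [0.199, 0.630], and in the 10 of Oxali to 896 CPM, 0.840 times [0.526, 1.31]. In conventional dendritic-like barcodes Combo was below Ctrl, at 612 against 1224 CPM in 6 and 7 barcodes, with an interval of the ratio from 0.283 to 0.857. In an unnamed cluster with Krt7 and Cldn3, genes of epithelial cells, they summed to 33.3 CPM in Ctrl, from 5 UMIs in 9 barcodes, and to 430.4, 239.8 and 181 CPM in the aPD-L1, Oxali and Combo libraries, from 15, 26 and 17 barcodes. Isg15 made up most of the latter, at 391, 187 and 132 CPM against 19.96 in Ctrl.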

How the results depend on the processing

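Each group is 1 library, so no replicate could be left out, and depth limits Oasl1 in every class and all plasmacytoid-like and macrophage-like values with few UMIs. No paired analysis was possible because each group is 1 library. Of 246 alternatives over 18 main results, 185 stayed within the counting interval or within 1.5 times of a count, 56 moved and 5 reversed. For 12 further values 170 of 178 stayed and 8 moved. Crossings of 1 were not all counted as reversed. The summed Combo ratio of macrophage-like barcodes, 1.01 as reported, was above 1 in 3 of 11 settings. The T-like level per responding barcode was above 1 in 15 of 17 settings for aPD-L1 and 16 of 17 for Oxali. Among the further values, the macrophage-like Oxali level was above 1 in 8 of 15. In T-like barcodes the summed ratio to Ctrl was above 1 in 13 of 13 settings and the responding share ratio in 17 of 17, in all 3 treated libraries. The cause of the changes below was not tested, apart from the fewer barcodes or genes that a setting leaves.

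In T-like barcodes with fewer than 3 macrophage UMIs the summed ratios of aPD-L1, Oxali and Combo were 1.37, 1.39 and 1.74, the levels per responding barcode 1.16 (aPD-L1) and 1.17 (Oxali), and 3 members were higher in aPD-L1. Without the stress-led cluster the summed ratios were 1.55, 1.57 and 2.06, 5 members were higher in aPD-L1 and 5 in Oxali, and the Oxali level per responding barcode was 0.946. In low-stress barcodes the summed ratios were 1.34, 1.38 and 1.80, with 4 and 5 members higher under the single agents. Without the dividing cluster the summed Combo ratio was 1.83 and 0 members were higher in either single-agent library, and 0 were in Oxali without Scrublet-marked barcodes. The stricter filter gave summed ratios of 1.14 (aPD-L1) and 1.54 (Combo), 2 members higher in aPD-L1 and an aPD-L1 level per responding barcode of 0.936. Gates in place of clusters gave summed ratios of 1.37, 1.37 and 1.74, 2 members higher in aPD-L1, and levels of 1.18, 1.18 and 1.30. Centring on all genes gave 1.497 and 4 members in Combo, and totals without ribosomal, mitochondrial and stress genes 1.46 and 3 members. Oxali levels per responding barcode were 1.23 at 1000 UMIs, 1.21 at 2500 UMIs, 1.25 with another seed and 1.18 averaged over draws, aPD-L1 was at 1.17 with another seed, and Combo was at 1.37 at 2500 UMIs.

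In macrophage-like barcodes with fewer than 3 T UMIs, 12 to 14 in a library, the summed ratios were 0.884 (aPD-L1, reversed), 0.450 (Oxali) and 0.269 (Combo). With interferon genes kept in the clustering they were 1.12 in aPD-L1 and 0.803 in Oxali, with gates 1.02 in Oxali (reversed) and 1.205 in Combo, and in low-stress barcodes 1.34, 1.02 (Oxali, reversed) and 1.11. In plasmacytoid-like barcodes those with fewer than 3 T UMIs, 4 to 13 in a library, gave 2.42, 3.19 and 2.56. Leaving out Irf7 gave 0.888 in aPD-L1 and 0.929 in Oxali, both reversed, and 1.25 in Combo. The stricter filter gave 1.12 in Oxali, and gates gave 1.498 in Oxali and 2.01 in Combo.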

Other observations

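Of the listed type I genes tested in plasmacytoid-like barcodes, 3 of 26 were higher and 3 lower in aPD-L1, 2 of 29 higher and 1 lower in Oxali, and 8 of 32 higher and 1 lower in Combo, at median log2 ratios of 0.03, 0.18 and 0.16. Over all genes the shares higher and lower were 7.94% and 7.45% in aPD-L1, 5.9% and 6.71% in Oxali, and 5.34% and 6.07% in Combo. In macrophage-like barcodes 1 of 37 was higher and 1 lower in aPD-L1, 0 of 37 higher and 3 lower in Oxali, and 2 of 36 higher and 0 lower in Combo, at medians of 0.07, -0.01 and 0.13, and over all genes 2.83% and 8.34%, 2.49% and 5.45%, and 4.28% and 5.68% were higher and lower.

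On the log2 scale, the summed T-like level in Combo lay 0.09 above the sum of both single-agent differences from Ctrl. Single members departed from that sum in both directions, Mx1 by 1.11, Rsad2 by 0.68 and Ifit1 by 0.39 above it, and Usp18 by -0.41 and Irf7 by -0.28. These values have no replicate check and were not tested.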
